A study of Mus musculus with 6 samples.

Results

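Germline genes from a list labelled as normally held by DNA methylation were examined in mouse embryonic stem cells (mESCs). The cells had or lacked SIRT1, an NAD+-dependent protein deacetylase. The list held 39 genes of meiosis and of the piRNA pathway, taken by name from the 54352 genes of the deposited table, and all 39 were found. RNA was sequenced from SIRT1 KO mESCs in 3 libraries and from WT mESCs in 3 libraries, all grown in ESGRO medium, a serum-free medium for mESCs. The labels give male cells of the 129Sv/J background for both genotypes, and the study's methods describe its SIRT1 KO mESCs as made by gene targeting in the R1 line, without saying how many clones were used. The study counts its transcriptomes as biological replicates, and p-values measure the spread between these libraries and not between independent lines.

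In mammals, germ cells build their own machinery for meiosis and for silencing transposons. PIWI proteins carry short piRNAs, and tudor-domain proteins gather them in the germ granules where piRNAs are made, while synaptonemal complex proteins, HORMA-domain proteins and a meiotic cohesin shape the paired chromosomes. Outside the germline many of these genes are kept off by methylation of CpG-rich promoters and by a Polycomb complex, PRC1.6, whose subunits E2F6 and MGA-MAX bind DNA. mESCs are known to transcribe several of them at low levels. Methylation was not measured here, so whether the promoters carry it in these cells cannot be read from the values.

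Promoter sequences of 4 members with large changes in SIRT1 KO mESCs are shown first, because CpG content and E-boxes are described for these windows further on. The 4 were not picked by size of change alone. Hormad2 with 16 CpG dinucleotides and Tdrd9 with 10, both at a log2 fold change of -0.72, are not shown, while Tdrd12 at -0.69 is. Each window runs from 250 bases before to 50 bases after the RefSeq start on GRCm38.p6, 5′ to 3′ on the strand of the gene, with CpG dinucleotides in capitals. The windows are those of Fkbp6 (chr5:135349995-135350294, minus strand), Sohlh2 (chr3:55181794-55182093, plus strand), Tdrd12 (chr7:35537695-35537994, minus strand) and Zcwpw1 (chr5:137787552-137787851, plus strand).
Fkbp6: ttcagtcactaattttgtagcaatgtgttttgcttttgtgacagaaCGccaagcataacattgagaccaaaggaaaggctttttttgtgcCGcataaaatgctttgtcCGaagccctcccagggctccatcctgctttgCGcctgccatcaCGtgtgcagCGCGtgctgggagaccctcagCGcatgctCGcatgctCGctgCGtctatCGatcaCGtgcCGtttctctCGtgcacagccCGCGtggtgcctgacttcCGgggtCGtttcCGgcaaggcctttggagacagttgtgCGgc
Sohlh2: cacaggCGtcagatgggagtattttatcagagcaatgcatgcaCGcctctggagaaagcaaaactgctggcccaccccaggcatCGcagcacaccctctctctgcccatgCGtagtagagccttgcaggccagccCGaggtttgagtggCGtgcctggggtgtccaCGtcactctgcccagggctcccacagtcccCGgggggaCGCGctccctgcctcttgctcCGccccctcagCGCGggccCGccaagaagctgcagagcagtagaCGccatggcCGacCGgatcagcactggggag
Tdrd12: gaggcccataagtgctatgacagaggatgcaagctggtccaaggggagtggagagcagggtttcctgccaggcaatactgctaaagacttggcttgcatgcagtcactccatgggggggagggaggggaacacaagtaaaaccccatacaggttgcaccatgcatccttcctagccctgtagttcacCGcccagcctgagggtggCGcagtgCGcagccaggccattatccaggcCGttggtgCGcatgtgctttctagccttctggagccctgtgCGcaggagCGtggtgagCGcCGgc
Zcwpw1: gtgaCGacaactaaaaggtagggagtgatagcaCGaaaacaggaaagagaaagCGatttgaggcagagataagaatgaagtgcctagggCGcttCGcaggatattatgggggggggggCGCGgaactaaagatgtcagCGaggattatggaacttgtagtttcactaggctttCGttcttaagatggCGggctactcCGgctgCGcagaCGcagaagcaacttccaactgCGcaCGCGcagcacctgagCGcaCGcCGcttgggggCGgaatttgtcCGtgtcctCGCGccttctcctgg
The first 3 genes were lower and the last was higher in SIRT1 KO mESCs. Tdrd12 held 9 CpG dinucleotides, Sohlh2 held 17, Fkbp6 held 21 and Zcwpw1 held 23. The number of CpGs did not order the called members by direction, since Dazl with 28 and Hormad1 with 24 were lower and Hsf2bp with 20 was higher.

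The 39 listed germline genes leaned toward lower values in SIRT1 KO mESCs, with a few clear exceptions. The list was chosen with earlier results of these data known, so its counts are a description. Further germline genes outside the list, given below, had a median log2 fold change of 0.01. Values are the deposited log2 normalized levels, and genes entered the test where the mean of the 6 back-transformed values reached 10. Of the 39 genes 36 did so, and of these 10 were lower, 3 were higher and 23 were not called at an adjusted p under 0.01 (limma on the deposited log2 values, Benjamini-Hochberg over 26571 genes). Lower genes made up 27.8% of the tested members, beside 8.12% of all genes tested and 11.3% of protein-coding genes tested. Higher genes made up 8.33% of them, beside 8.47% of all genes tested and 12.4% of protein-coding genes tested. The median log2 fold change of the members was -0.18, beside -0.01 over all genes tested. The SIRT1 KO values lay wholly below the WT values for 18 members and wholly above them for 4, beside 22.9% and 21.8% of all genes tested (44.7% in either direction). In bulk RNA, fewer cells that express a gene and less of its RNA per cell cannot be told apart.

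**Figure D1:**
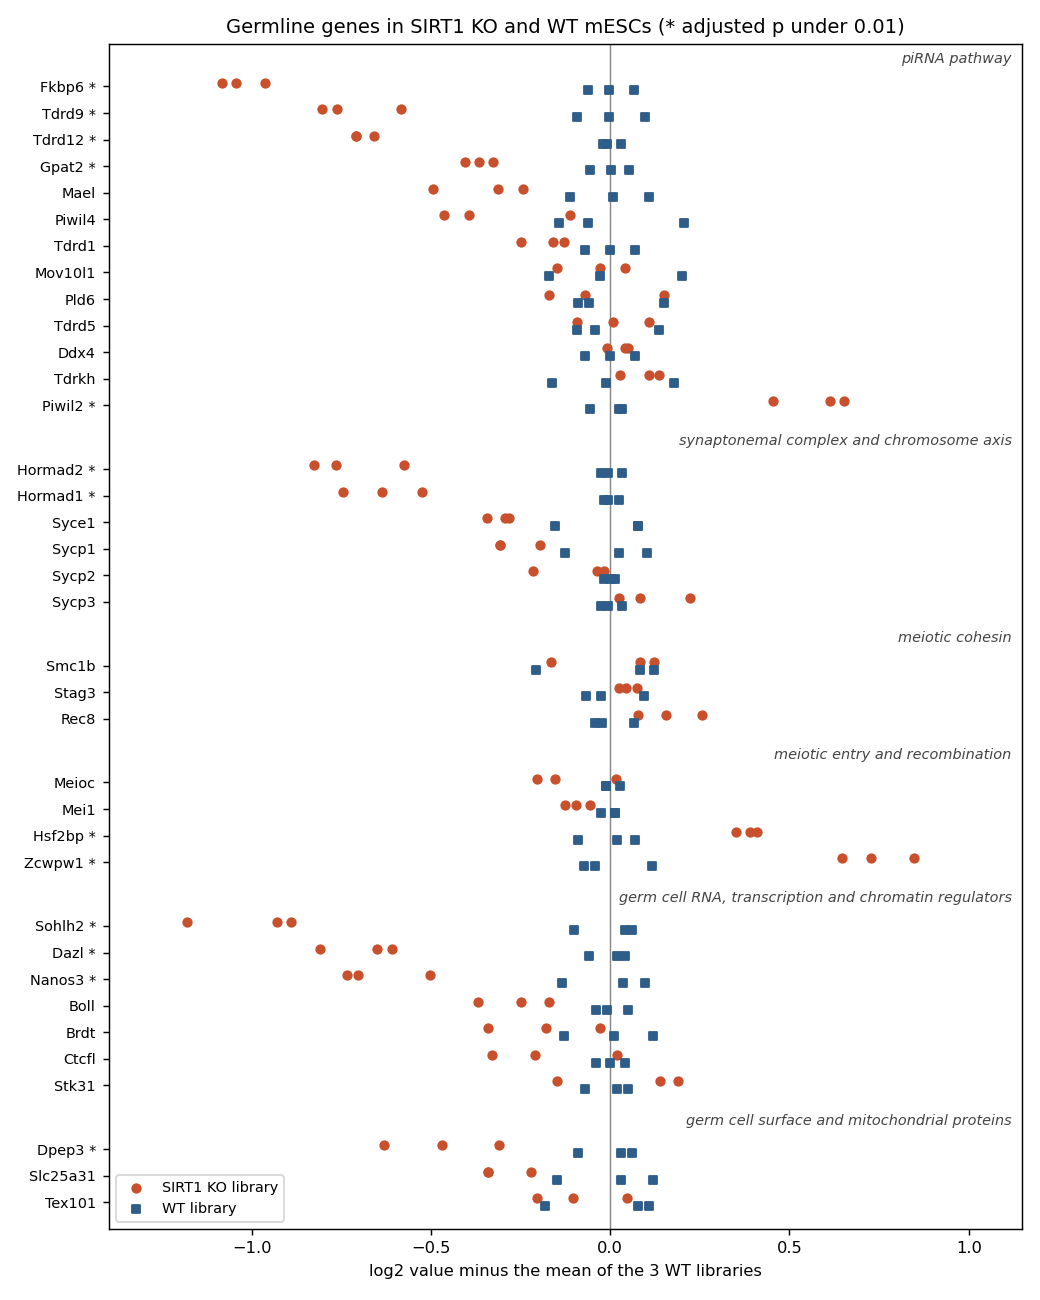
Deposited log2 value of the 36 tested germline genes in each library, minus the mean of the 3 WT libraries of the same gene; circles are SIRT1 KO libraries, squares are WT libraries, and a star marks an adjusted p under 0.01. Fkbp6 and Sohlh2 lie farthest to the left, at about 1 log2 unit below WT, and Zcwpw1 lies farthest to the right.

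The RNA of the targeted gene Sirt1 was at 13.71, 13.72 and 13.79 in SIRT1 KO libraries, against 15.52, 15.54 and 15.49 in WT libraries (log2 change -1.78 ± 0.049 SE, limma adjusted p = 1.16e-07), a value for the whole gene that does not separate the targeted part. The 12 mESC markers examined, among them Pou5f1 and Nanog, had a median level at the 99.4 percentile in both genotypes, with 1 of them, Klf4, called lower (-0.34, a call that was lost without SIRT1 KO replicate 2 or 3 or WT replicate 3, at adjusted p = 0.0313, 0.0294 and 0.017, and after median centring, at 0.0104). Other mESC markers passed as lower in single alternatives, Sox2, Klf2 and Fbxo15 without WT replicate 2 (0.000605, 0.00127 and 0.00334), Sox2 and Klf2 after quantile normalization (0.00141 and 0.00241) and Utf1 without SIRT1 KO replicate 1 (0.00141). At an unadjusted limma p under 0.05, 5 of the 12 were lower and 1, Nanog (0.15), was higher. The share of all genes at this threshold was not taken, so these counts have no background beside them. Markers of spermatids and oocytes were mostly near the floor, with a median at the 16.4 percentile in SIRT1 KO and the 16.3 percentile in WT mESCs. Of the 11 genes 9 were too low to be tested, among them the protamine genes Prm1 and Prm2, and Bmp15 was listed at 0, while the zona pellucida gene Zp3 was at 12.25 in SIRT1 KO and 12.11 in WT mESCs. Of 10 fibroblast markers, 3 (Dcn, Postn and S100a4) were listed at 0 in every library, and the summed level of the list ran from 12.09 to 12.27 in SIRT1 KO and from 12.13 to 12.28 in WT libraries on the log2 scale. Of these, Thy1 (-0.56) and Pdgfra (-0.55, lost without any 1 SIRT1 KO library at 0.0111, 0.0175 and 0.0113) were lower and Pdgfrb (0.38, adjusted p of up to 0.0293 over the alternatives) was higher, and the part of such cells in the changes below was not tested.

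Apart from 3 members near the floor, the germline genes of the list gave signal in these cells, though some only at a low level. In WT mESCs their levels ran from the 18.2 percentile for Spo11 to the 90.8 percentile for Hsf2bp of the 37703 genes with any signal, with a median at the 67.4 percentile, and in SIRT1 KO mESCs the median was at the 65.2 percentile. Per kb of exon, Hsf2bp was highest, at 9870 in SIRT1 KO and 7580 in WT mESCs on the linear normalized scale. In WT mESCs it was followed by Syce1, a central element protein of the synaptonemal complex, at 2860 in SIRT1 KO and 3540 in WT mESCs, Stag3 at 3450 in SIRT1 KO and 3340 in WT mESCs, and Gpat2 at 2490 in SIRT1 KO and 3220 in WT mESCs. The lowest were Spo11, which makes the DNA breaks of meiosis, at 0.764 in SIRT1 KO and 0.77 in WT mESCs, Tdrd6, a tudor protein of the chromatoid body, at 0.984 in SIRT1 KO and 1 in WT mESCs, and Asz1, an ankyrin-repeat protein of germ granules, at 2.97 in SIRT1 KO and 3.11 in WT mESCs. These 3 genes were the members that did not pass the filter. Some tested members were low as well, such as Sycp2 at 13.5 in SIRT1 KO and 14.3 in WT mESCs. Mei1 was at 14.9 in SIRT1 KO and 15.9 in WT mESCs. The fibroblast marker Col1a1 was at 18.1 in SIRT1 KO and 15.9 in WT mESCs, so such levels need not mean meaningful expression. Summed over all 39 genes the log2 level was 16.71 to 16.76 in SIRT1 KO libraries and 16.70 to 16.77 in WT libraries, ranges that overlap, and the abundant Hsf2bp was higher while most of the called genes were lower.

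**Figure D2:**
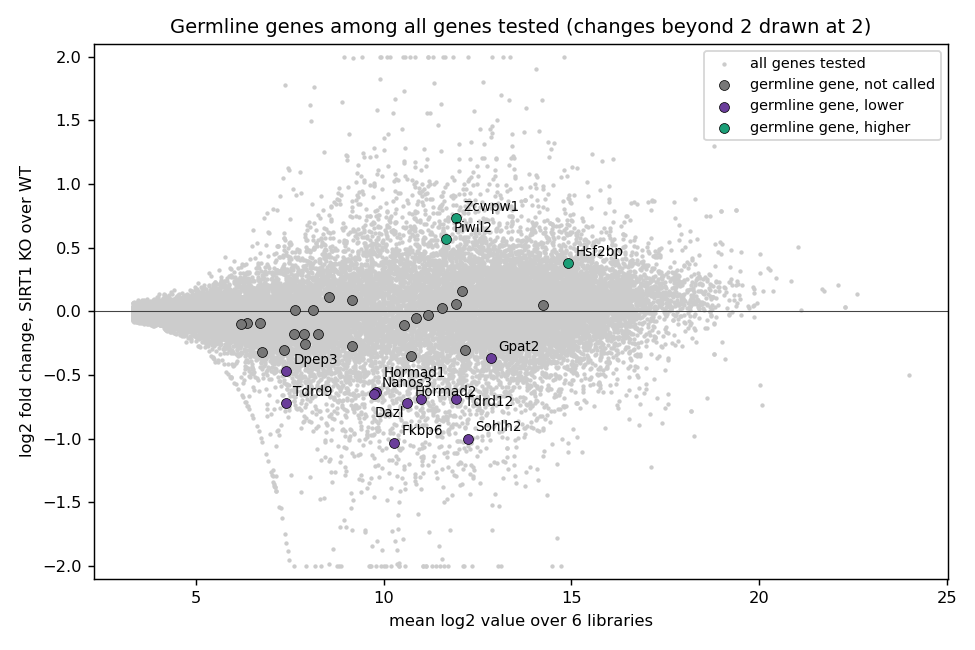
Log2 fold change of SIRT1 KO over WT against the mean log2 value over 6 libraries, for all 26571 genes tested (grey) and the 36 tested germline genes (dark grey not called, purple lower, green higher). Called members span mean values of about 7 to 15, and Hsf2bp is the most abundant member.

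In the piRNA pathway 4 of 13 tested genes were lower in SIRT1 KO mESCs and 1 was higher. Fkbp6, a cochaperone-like protein needed for piRNA production, was at 9.76, 9.72 and 9.84 in SIRT1 KO libraries, against 10.80, 10.74 and 10.87 in WT libraries. Every SIRT1 KO value lay below every WT value, and the RNA was 2.04-fold lower (log2 change -1.03 ± 0.074 SE, limma adjusted p = 1.97e-05). Tdrd12, a tudor-domain protein with a helicase-like region that acts in piRNA amplification, was at 11.56, 11.61 and 11.56 in SIRT1 KO libraries, against 12.26, 12.25 and 12.30 in WT libraries (-0.69 ± 0.056 SE, adjusted p = 3.95e-05). Its replicates were close to each other in both genotypes, with an SD of 0.026 in SIRT1 KO and 0.029 in WT mESCs. Tdrd9, a tudor-domain helicase that silences LINE-1 elements in the male germline, was at 6.99, 7.17 and 6.95 in SIRT1 KO libraries, against 7.75, 7.66 and 7.85 in WT libraries (-0.72 ± 0.088 SE, adjusted p = 0.000402). Its groups did not overlap. Gpat2, a mitochondrial acyltransferase needed to make primary piRNAs, changed less, at 12.72, 12.64 and 12.68 in SIRT1 KO libraries, against 13.05, 12.99 and 13.10 in WT libraries (-0.37 ± 0.056 SE, adjusted p = 0.00145). Without SIRT1 KO replicate 2 or 3 this call was lost (adjusted p = 0.0128 and 0.0102, within a range from 0.000322 to 0.0128 over the alternatives).

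Piwil2, a PIWI protein that binds piRNAs, went the other way. It was at 12.03, 11.99 and 11.83 in SIRT1 KO libraries, against 11.41, 11.32 and 11.40 in WT libraries, or 1.49-fold higher (log2 change 0.57 ± 0.072 SE, limma adjusted p = 0.000483). The related Piwil4, which guides methylation of transposons in fetal male germ cells, had overlapping groups and a log2 fold change of -0.32 (adjusted p = 0.0725). Ddx4, the Vasa helicase used as a germ cell marker, was at 11.57, 11.58 and 11.52 in SIRT1 KO libraries, against 11.53, 11.46 and 11.60 in WT libraries, and the groups overlapped (0.03 ± 0.064 SE, adjusted p = 0.771). Pld6, the mitochondrial nuclease of primary piRNA processing, was at 11.34, 11.02 and 11.12 in SIRT1 KO libraries, against 11.13, 11.34 and 11.10 in WT libraries, and overlapped as well. Among the other members, the germ granule protein Mael averaged 10.54 in SIRT1 KO and 10.90 in WT mESCs without overlap, and its log2 change of -0.35 did not pass (adjusted p = 0.0191), though it did without WT replicate 2 (adjusted p = 0.00638). Tdrd1, Tdrd5, Tdrkh and the helicase gene Mov10l1 lay between -0.18 and 0.09. Tdrkh shares 36.7% of its annotated exon bases with Oaz3 on the opposite strand, and because no source states whether reads were counted by strand, its value is uncertain.

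Of the 6 genes of the synaptonemal complex and chromosome axis, 2 were lower, and both encode HORMA-domain proteins. Hormad1, which marks unpaired chromosome axes, was at 9.38, 9.49 and 9.60 in SIRT1 KO libraries, against 10.15, 10.11 and 10.12 in WT libraries (log2 change -0.63 ± 0.08 SE, limma adjusted p = 0.000475). Hormad2, its paralog on chromosome 11, was at 10.16, 10.22 and 10.41 in SIRT1 KO libraries, against 10.98, 10.96 and 11.02 in WT libraries (-0.72 ± 0.082 SE, adjusted p = 0.000254). In both genes the SIRT1 KO libraries spread more than the WT libraries, and the groups stayed apart. The 4 genes of the synaptonemal complex proper were not called. Syce1 was at 11.99, 12.04 and 12.05 in SIRT1 KO libraries, against 12.41, 12.18 and 12.41 in WT libraries (-0.30 ± 0.075 SE, adjusted p = 0.0162), and it passed without WT replicate 2 (adjusted p = 0.000596) and among protein-coding genes alone (adjusted p = 0.00847). Sycp1, the transverse filament, had -0.27 (adjusted p = 0.0475), the lateral element gene Sycp2 had -0.09, and its partner Sycp3 had 0.11. Sycp3 shares 52.2% of its exon bases with Chpt1, transcribed from the opposite strand at 11.89 in SIRT1 KO and 12.07 in WT mESCs, so its value is uncertain.

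Among meiotic cohesin and recombination genes none was called lower and 2 were higher. Stag3, a cohesin subunit of meiosis, was at 14.27, 14.25 and 14.30 in SIRT1 KO libraries, against 14.16, 14.32 and 14.20 in WT libraries. Rec8, the meiotic kleisin, was at 12.25, 12.07 and 12.15 in SIRT1 KO libraries, against 11.95, 12.06 and 11.97 in WT libraries (log2 fold change 0.16, limma adjusted p = 0.114). Stag3 values overlapped between genotypes, Rec8 values did not, and Smc1b had a log2 fold change of 0.01, so that none of the 3 cohesin genes was called, while 1 of them, Rec8, had an unadjusted p of 0.0434. Zcwpw1, a reader of histone methylation that promotes repair of meiotic breaks placed by PRDM9, was at 12.20, 12.28 and 12.40 in SIRT1 KO libraries, against 11.51, 11.48 and 11.67 in WT libraries. It was 1.66-fold higher (0.73 ± 0.079 SE, adjusted p = 0.000187). Hsf2bp, which binds BRCA2 and brings it to meiotic breaks, was at 15.08, 15.12 and 15.14 in SIRT1 KO libraries, against 14.75, 14.64 and 14.80 in WT libraries (0.38 ± 0.055 SE, adjusted p = 0.00103). Genes on the opposite strand that share exon bases with them, Pilra for Zcwpw1 (8.21% of its exon bases) and Rrp1b for Hsf2bp (1.5%), had log2 fold changes of -0.02 and -0.03. Meioc, which keeps meiotic entry on course, and Mei1, needed for meiotic breaks, had -0.11 and -0.10 and were not called.

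Of 7 germ cell regulators of RNA, transcription and chromatin 3 were lower. Sohlh2, a basic helix-loop-helix transcription factor of early spermatogonia and oocytes, was at 11.56, 11.81 and 11.85 in SIRT1 KO libraries, against 12.78, 12.64 and 12.80 in WT libraries, or 2.01-fold lower (log2 change -1.0 ± 0.087 SE, limma adjusted p = 5.71e-05). Dazl, an RNA-binding protein that licenses germ cells for sexual differentiation, was at 10.54, 10.70 and 10.74 in SIRT1 KO libraries, against 11.39, 11.29 and 11.37 in WT libraries (-0.69 ± 0.076 SE, adjusted p = 0.000214). Nanos3, an RNA-binding protein that keeps migrating primordial germ cells alive, was at 9.34, 9.57 and 9.37 in SIRT1 KO libraries, against 9.94, 10.11 and 10.17 in WT libraries (-0.65 ± 0.095 SE, adjusted p = 0.00111). No SIRT1 KO library reached a WT value in any of these 3 genes. Stk31, a kinase-like tudor protein, was at 11.75, 12.04 and 12.09 in SIRT1 KO libraries, against 11.92, 11.95 and 11.83 in WT libraries, and its groups overlapped (0.06 ± 0.093 SE, adjusted p = 0.673). Boll, the oldest member of the DAZ family, had -0.26 (adjusted p = 0.0406), and the CTCF paralog Ctcfl and the testis bromodomain gene Brdt had -0.18 each. Dpep3, a membrane dipeptidase of the testis, was at 7.01, 7.33 and 7.17 in SIRT1 KO libraries, against 7.67, 7.55 and 7.70 in WT libraries (-0.47 ± 0.096 SE, adjusted p = 0.00657). Its call was lost after median centring (adjusted p = 0.0114) and quantile normalization (0.0178) and without SIRT1 KO replicate 1 or 3 (0.0221 and 0.0281) or WT replicate 1 or 3 (0.0148 and 0.0301), within a range from 0.00206 to 0.0301. Slc25a31, the ADP/ATP carrier of germ cell mitochondria, had -0.30 (adjusted p = 0.0372) and the germ cell surface protein Tex101 had -0.09.

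**Figure D3:**
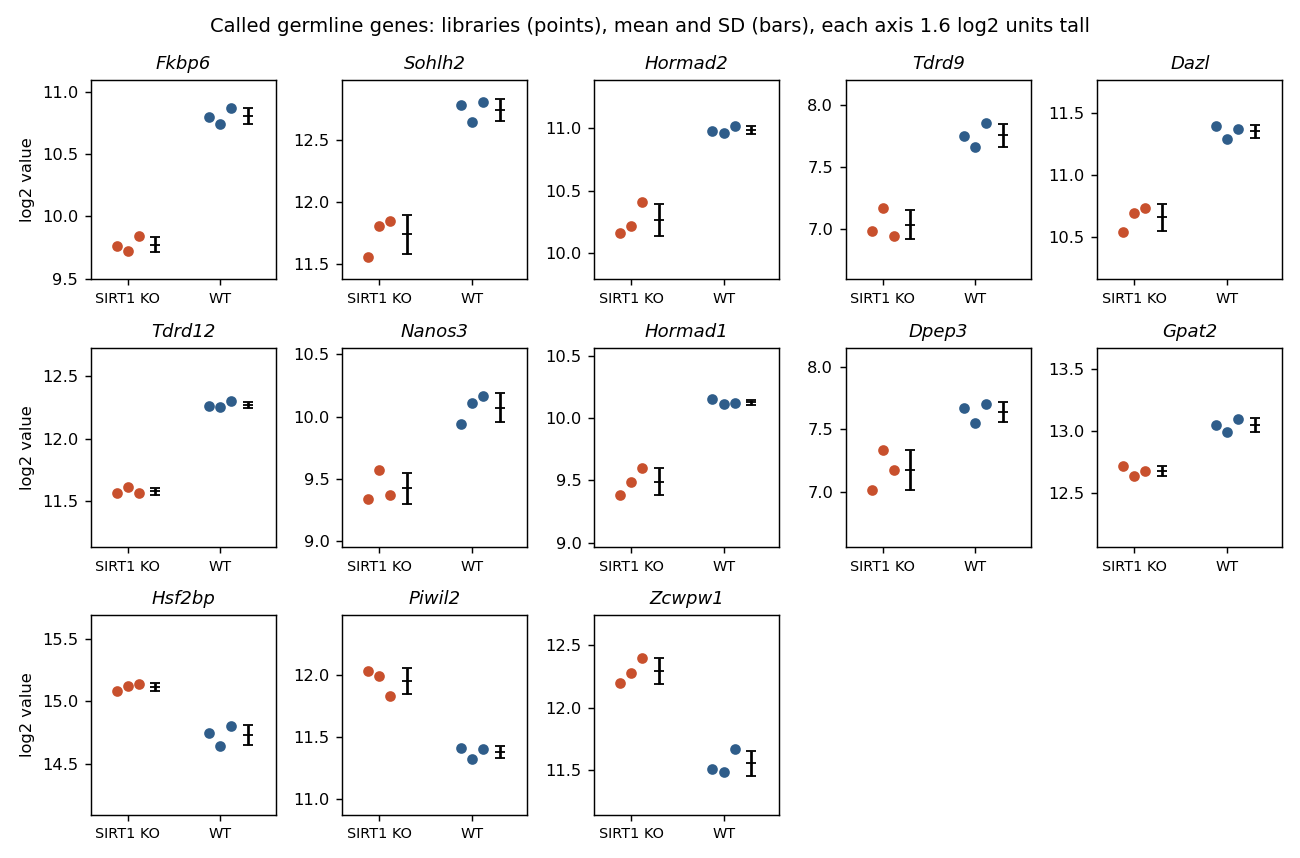
Deposited log2 values of the 13 called germline genes in each library, with SIRT1 KO left of WT in every panel, points for the 3 libraries and bars for the mean and SD; each axis spans the same number of log2 units. SIRT1 KO values lie below WT in 10 panels and above WT in Hsf2bp, Piwil2 and Zcwpw1, with no overlap in any panel.

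Called members were spread over the autosomes, and their neighbourhoods mostly did not move with them. Within 2.5 Mb on either side, the median log2 fold change of the other tested genes lay between -0.06 and 0.06 around 11 of the 13 called members. Tdrd9 lies on chromosome 12 from 111971559 to 112068854 (GRCm38), where 62 of 149 tested neighbours were lower and the median was -0.09. Nanos3 lies on chromosome 8 from 84173731 to 84185217, where 41 of 107 tested neighbours were higher, 2 were lower and the median was 0.19, so that it was lower within a stretch that was higher. Stag3, whose gene starts within 1 Mb of Zcwpw1 on chromosome 5, had a log2 fold change of 0.05, against 0.73 for Zcwpw1. Tdrkh starts about 1 Mb from Hormad1 on chromosome 3, with 0.09 against -0.63.

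Promoter windows of the members were read for CpG content and for the letters of E-boxes and E2F6 sites. RefSeq windows were found for 35 members, and no window was used for Piwil2, Tdrd6, Spo11 and Ctcfl. The median ratio of observed to expected CpG was 0.72 over the 35 windows, beside 0.39 over 27025 genes with 1 window each and 0.70 over the 14029 of these that were tested. The E-box CACGTG, which reads the same on both strands and is bound by MGA-MAX and by Myc-MAX, stood in 15 of 35 member windows (42.9%), beside 7.22% of all genes and 9.34% of tested genes. The letters TCCCGC or their complement GCGGGA, a core of E2F6 sites that can share an end base with the E-box, stood in 13 member windows (37.1%), beside 20.2% of all genes and 32.2% of tested genes. In the Fkbp6 window shown above, E-boxes begin 101 and 37 bases before the start, and the windows of Sohlh2, Tdrd12 and Zcwpw1 hold none. The windows of the lower members Tdrd9 and Hormad1, which are not shown, hold 2 each. These matches are letters in a window and do not show binding.

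Lower members had a smaller ratio in the median than the others, which is given as a description without a test. The median observed over expected ratio was 0.54 for the 10 lower members, from 0.13 for Nanos3, whose window lies 8665 bases from the GENCODE start, to 0.93 for Fkbp6, against 0.74 for the 22 not called that had a window, and Hsf2bp and Zcwpw1 had 0.93 and 1.06. Of 11 tested members with a ratio under 0.6, 7 were lower and none was higher, with a median log2 fold change of -0.47. Among 15 with a ratio from 0.6 to 0.9, 2 (Dazl and Hormad1) were lower, and among 8 with a ratio of 0.9 or more, 1 (Fkbp6) was lower and 2 were higher. Over all tested genes the lower share was 11% under 0.6, 10.3% from 0.6 to 0.9 and 9.04% at 0.9 or more. Across the 34 tested members with a window the ratio correlated with the log2 fold change at r = 0.50 (Spearman 0.52), and across all 14029 tested genes at 0.05 (Spearman 0.07). Members are not independent replicates, the bounds were set after the values were known, and for 5 members (Nanos3, Hsf2bp, Mei1, Meioc and Tex101) the RefSeq start lies over 1000 bases from that of GENCODE (r = 0.47 over the other 29). E-boxes did not follow the same order, since 3 of 15 members with one were lower and 7 of 19 without one were lower. Of 13 tested members with the E2F6 letters 2 were lower and 1 was higher (median 0.01). Of 21 without them 8 were lower and 1 was higher (median -0.26).

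**Figure D4:**
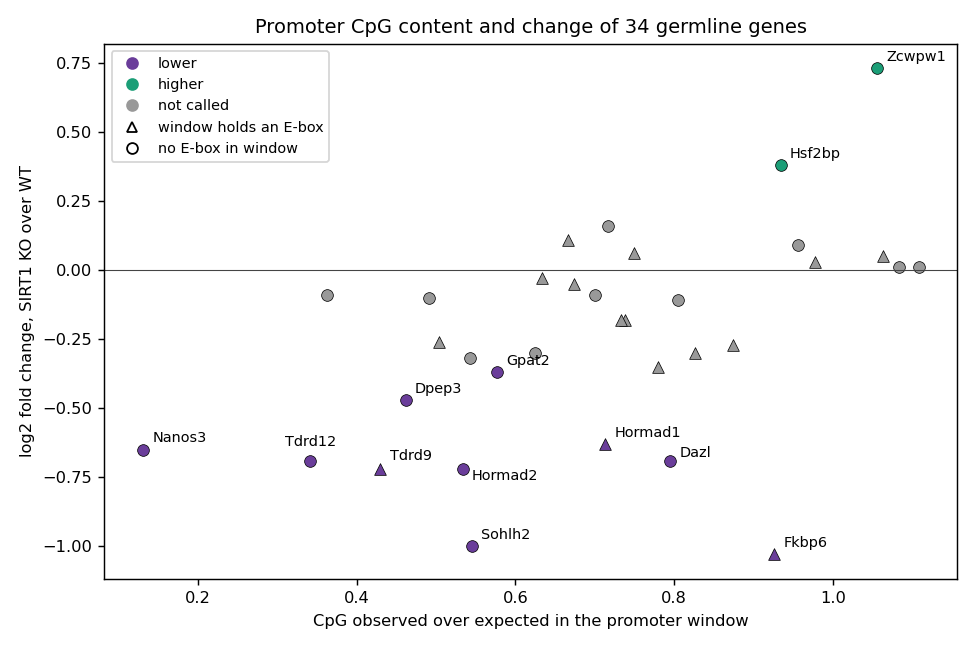
Log2 fold change of SIRT1 KO over WT against the observed over expected CpG ratio of the promoter window for 34 tested germline genes; triangles hold an E-box, purple is lower, green is higher and grey is not called. Lower members gather at ratios under 0.6, with Dazl, Hormad1 and Fkbp6 to the right of them.

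Enzymes that write DNA methylation changed in both directions. Dnmt3a, a de novo methyltransferase, was at 14.00 ± 0.12 in SIRT1 KO and 15.20 ± 0.0084 in WT mESCs (SD, n = 3 each), a log2 change of -1.20 ± 0.065 SE (limma adjusted p = 4.53e-06). The other de novo enzyme Dnmt3b (0.61, adjusted p = 2.97e-05), the cofactor Dnmt3l (0.84, adjusted p = 1.5e-05) and the maintenance enzyme Dnmt1 (0.24, adjusted p = 0.00674) were higher, so that 3 of 12 genes of the list were higher and 1 was lower, with a median of 0.01. These are 25% and 8.33% of the list, beside 8.47% and 8.12% of all genes tested and 12.4% and 11.3% of protein-coding genes. Uhrf1, which brings Dnmt1 to replicating DNA, had 0.13 and was not called (adjusted p = 0.127). Tet1 and Tet2, which oxidize methylcytosine, had -0.67 and -0.31 and passed as lower only without WT replicate 2, where the changes were -0.34 and -0.16, the adjusted p was 0.000389 and 0.00586 and the count of lower genes was 3. With the replicate number as a block the call of Dnmt1 was lost (adjusted p = 0.0185), as it was after quantile normalization (0.0159) and without any 1 SIRT1 KO library (0.0298, 0.0449 and 0.0374) or WT replicate 1 (0.034), within a range from 0.00136 to 0.0449. Whether these changes bear on the germline genes was not tested.

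Few genes on a list of 24 regulators of germline genes were called. Most of them encode repressors, but the list also holds Dppa2 and Dppa4, known as activators and counted among the further germline genes as well, and the transcription factor gene Myc. Of the 24 genes 1, Pcgf6, the subunit that defines PRC1.6, was higher (log2 fold change 0.30, limma adjusted p = 0.00494). None was lower at an adjusted p under 0.01, and the median was 0.02. The higher share was 4.17%, beside 8.47% of all genes tested, of which 8.12% were lower. At an unadjusted p under 0.05 there were 7 higher and 3 lower, and the share of all genes at that threshold was not taken. E2f6 had -0.00 (adjusted p = 0.987), Mga had -0.20 (adjusted p = 0.191), Max had -0.16 (adjusted p = 0.0555), the H3K9 methyltransferase gene Setdb1 had -0.07 (adjusted p = 0.299) and Myc had 0.03 (adjusted p = 0.762). These are RNA values and do not show protein level or activity. For c-Myc protein, the study cites its earlier work, where it was hyperacetylated and unstable in SIRT1 KO mESCs. The count of higher regulators rested on single libraries, being 0 without SIRT1 KO replicate 2, SIRT1 KO replicate 3 or WT replicate 3 and 3 without WT replicate 2. The count of lower ones was 1 without WT replicate 2.

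**Figure D5:**
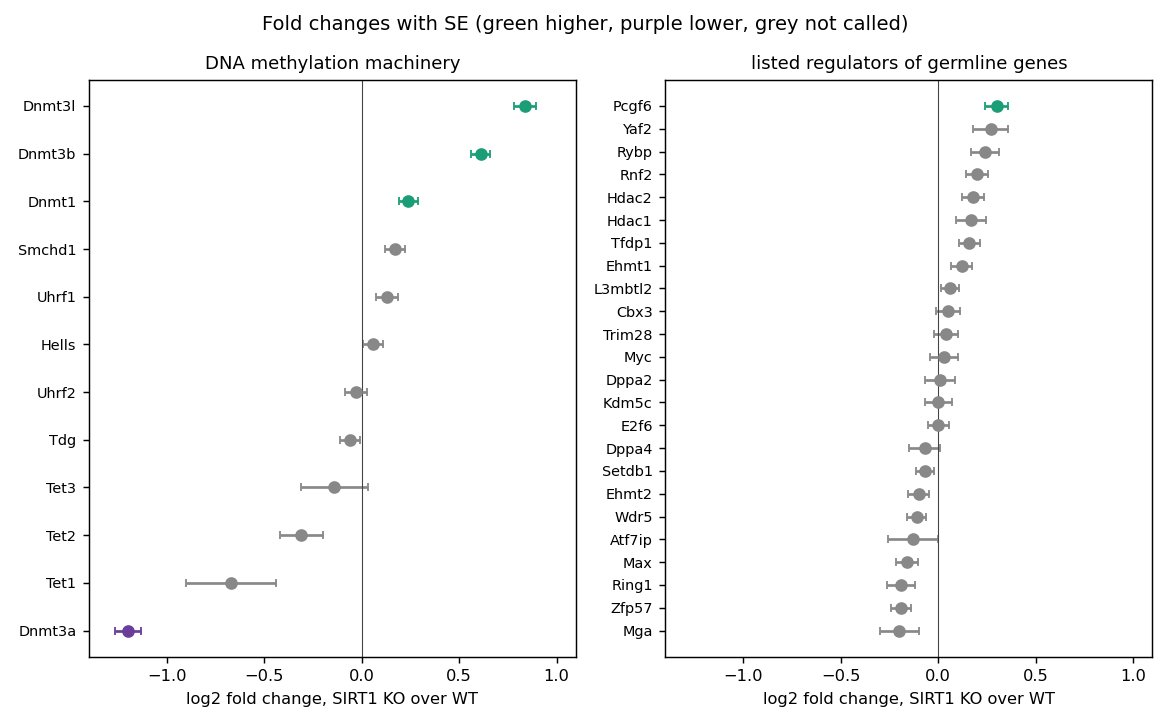
Log2 fold changes of SIRT1 KO over WT with their SE for 12 genes of the DNA methylation machinery (left) and 24 listed regulators of germline genes, mostly repressors (right); green is higher, purple is lower and grey is not called. Dnmt3a lies lowest at -1.20 and Dnmt3l highest at 0.84, and the regulators lie between -0.20 and 0.30.

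Further germline genes outside the list moved both ways. Of 38 tested, 6 were lower (15.8%) and 5 were higher (13.2%), with a median log2 fold change of 0.01. Over all genes tested 8.12% were lower and 8.47% higher, and over protein-coding genes 11.3% and 12.4%. Lower were Lin28b (-1.11, limma adjusted p = 1.44e-05), an inhibitor of let-7 processing, Tex19.1 (-1.0, adjusted p = 4.24e-05) and its neighbour Tex19.2 (-0.60, adjusted p = 0.000519), which restrain transposons, and D1Pas1 (-1.20, adjusted p = 0.000779), a testis helicase. Stra8, which starts meiosis under retinoic acid, had -0.78 (adjusted p = 0.00196), and Piwil1 had -0.44 (adjusted p = 0.00362). Higher were Syce2 (1.07, adjusted p = 6.79e-06), a central element protein of the synaptonemal complex, the intercellular bridge gene Tex14 (0.65, adjusted p = 3.78e-05), the meiotic recombinase gene Dmc1 (0.81, adjusted p = 0.000142) and Dnd1 (0.40, adjusted p = 0.00289), and the helicase gene Ddx25 (0.41, adjusted p = 0.00686) was called as well but lost without any 1 SIRT1 KO library (0.0135, 0.028 and 0.0366) or WT replicate 1 (0.0171). Syce2 lies in the same stretch of chromosome 8 as Nanos3, with 41 of 114 tested neighbours higher, 3 lower and a median of 0.19. Around D1Pas1 on chromosome 1, 11 of 36 tested neighbours were lower and 0 higher, with a median of -0.18. Hfm1, a meiotic helicase gene, had -0.38 and did not pass (adjusted p = 0.0103), but it did under several alternatives, within a range from 0.00332 to 0.0424. With the replicate number as a block it passed (adjusted p = 0.00555), which made 7 lower genes. Majin had 0.36 and did not pass (adjusted p = 0.0135), but it passed as higher under several alternatives, within a range from 0.00606 to 0.0567. Without any 1 of the SIRT1 KO libraries the count of higher genes was 3, and the call of Dnd1 was lost each time (adjusted p = 0.0166, 0.0147 and 0.0155). Stra8 was lost without SIRT1 KO replicate 1 or 2 (0.0141 and 0.0103), and Piwil1 without SIRT1 KO replicate 2 or 3 or WT replicate 3 (0.0217, 0.0216 and 0.0163). Among 8 tested markers of primordial germ cells 4 were lower, Prdm14 (-0.76), Tfap2c (-0.59), Dppa3 (-0.62) and Kit (-0.49, lost without any 1 SIRT1 KO library at 0.0104, 0.0152 and 0.0145), and Dnd1, counted in both lists, was higher. The lower share of these markers was 50%, beside 8.12% of all genes tested, and the higher share was 12.5%, beside 8.47%. Prdm14 and Tfap2c are transcription factors that specify these cells and are also expressed in mESCs, and their part in the changes of the members was not tested.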

How the data were processed

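RNA of 3 SIRT1 KO and 3 WT mESC libraries was analysed. According to the methods, adaptors were trimmed, reads were aligned to GRCm38 with STAR, RSEM gave expression values, and featureCounts gave read counts. The deposited values are log2 levels that the authors normalized between libraries with DESeq2. Which transformation made them is not stated, values of low genes are drawn together, and fold changes of such genes are understated. The labels name a poly(A)-enriched preparation and the methods a kit that depletes ribosomal RNA. The design text states about 520000000 reads per library, but the counts of each library cannot be read from these values, so no count test was run.

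Genotypes were compared with limma 3.58.1 in R 4.3.3 with a mean-variance trend over 26571 genes whose back-transformed mean was 10 or more, at a Benjamini-Hochberg adjusted p under 0.01. The smallest exact permutation p for 3 against 3 libraries is 0.1, so none is given. Percentiles are among 37703 genes not at 0 in all libraries. Positions came from GENCODE (98.7% of names matched 1 gene). All members are accounted for, with values per library for called members and the 6 most abundant others. Of other lists, all called DNA methylation genes, up to 4 called genes per direction by smallest adjusted p and a preset set of regulators are named. Tet1, Tet2, Stra8, Piwil1, Ddx25, Hfm1, Majin and the markers without a call were added after their values were seen. Members and lists were chosen with earlier results of these data known.

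Deviations from the group mean correlated between same-numbered libraries (0.242, 0.149 and 0.316) and reached at most 0.0838 between others, so a fit with the number as a block was one of the alternatives. Further ones were dropping the filter or raising it to 100, adding 10 before the logarithm, centring each library on its median, quantile normalization, a fit without the trend, robust moderation, thresholds of 0.05 and 0.001, protein-coding genes only, and leaving out each library.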

Additional observations from a re-analysis of the deposited data

How the results depend on the processing

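All 13 called members kept their direction under the 9 alternatives that recompute fold changes, while the other 8 leave the fold change as it is and bear only on the calls. The count of higher members was 3 at every setting except the threshold of 0.001, where 2 were higher and 7 lower. The count of lower members ran from 8 to 12 when each library was left out. With the replicate number as a block, which treats same-numbered libraries as pairs, 10 members were lower and 3 were higher, and the same 13 members were called, while 2079 genes were lower and 2041 higher over all genes. At a threshold of 0.05, 3762 genes were lower and 3804 higher, and 4 regulators of germline genes were higher and 1 lower. At 0.001, 1035 genes were lower and 1013 higher, 3 other germline genes were higher and 0 of the regulators were higher. After median centring 3099 genes were higher and 1718 lower, so that 64.3% of all calls were higher, against 51.1% without it. After quantile normalization 2 regulators were lower. Leaving out each library gave 1283 to 2669 lower and 1202 to 2794 higher genes, 1 to 3 lower genes of the DNA methylation machinery, 3 to 5 higher other germline genes, 0 to 3 higher and 0 to 1 lower regulators. Without SIRT1 KO replicate 2 there were 1283 lower and 1206 higher genes, without SIRT1 KO replicate 3 there were 1331 and 1202, and without WT replicate 3 there were 1413 lower. The highest counts of all genes came without WT replicate 2. The causes were not tested. The number of reads behind each value is not given by these files, and 3 members were too low to be tested.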
